A study of Mus musculus with 11 samples.

Results

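Mature oligodendrocytes express many genes that are not parts of the myelin sheath itself, and 39 of these were followed in the cerebral cortex of mice in which floxed alleles of one of the atypical protein kinases C met an Ng2-Cre transgene. The set was chosen by symbol as genes enriched in mature oligodendrocytes, leaving out sheath proteins, connexins, transcription factors and enzymes of galactolipid synthesis. All 39 were found among the 16228 genes of the deposited table, and all 39 passed the filter on low values, which left 14330 genes to test. Bulk RNA from a 4 mm punch of cortex, taken at postnatal day 30, was sequenced as one library per sample. The 4 controls were labelled Pkcz f/+ (replicates 1 and 2) or Pkcz f/f (replicates 3 and 4), with no Cre named. The 4 Prkci knockouts were labelled Ng2 Cre+ Prkci f/f and the 3 Prkcz knockouts Ng2-Cre+ Prkcz f/f, and they are called Prkci cKO and Prkcz cKO below. The controls thus carry floxed Prkcz alleles and no floxed Prkci allele is named for them. Presence of Cre and of the floxed Prkci line coincides with the groups and cannot be told apart from loss of the kinase. The design names the replicates of each genotype as biological, and the cells in which Cre acted were not examined here.

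Oligodendrocytes wrap axons in myelin, and as they mature they switch on genes for lipid-derived signals, cell adhesion, iron handling and remodelling of the actin cytoskeleton. The Ng2-Cre transgene uses control elements of the NG2 gene, Cspg4, which is active in oligodendrocyte precursors and in pericytes. PRKCI and PRKCZ are kinases of the cell polarity machinery. In whole tissue, fewer oligodendrocytes and less RNA of a gene per oligodendrocyte cannot be told apart. Several members are also made by other cells of the brain: Enpp2, Trf and Car2 by the choroid plexus, Apod and Gsn by fibroblasts, and Cryab and Cd9 by astrocytes among others.

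Low values stepped in a way that gave an effective depth of 14750000 reads in Prkcz cKO replicate 3 and of 20620000 to 28170000 in the other 10 libraries. Prkci was lower in Prkci cKO (67 ± 1.47, SD, n = 4) than in controls (87.8 ± 2.52, SD, n = 4; limma adjusted p = 0.000984). Prkcz was 278 ± 15.1 (SD, n = 3) in Prkcz cKO against 323 ± 20.2 in controls and did not pass the threshold (adjusted p = 0.0966). Values are a normalised expression signal that sums to between 1021767 and 1082562 in each library. The 13 cortical neuron genes examined were all measured, with a summed level of 13300 to 13800 in controls, 13800 to 14300 in Prkci cKO and 13500 to 14100 in Prkcz cKO.

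The start regions of 3 members are shown because these had the smallest p in Prkci cKO among the 6 members whose region overlaps no exon of the GENCODE M21 annotation; 26 members had an entry in the RefSeq promoter table (GRCm38.p6). Each is the 250 bases before the listed start, 5′ to 3′ on the strand of the gene. Capitals mark ACAAAG or ACAATG, forms of the core that SOX family factors bind, on either strand (CTTTGT and CATTGT on the other). No other motif was searched.
Tmem88b: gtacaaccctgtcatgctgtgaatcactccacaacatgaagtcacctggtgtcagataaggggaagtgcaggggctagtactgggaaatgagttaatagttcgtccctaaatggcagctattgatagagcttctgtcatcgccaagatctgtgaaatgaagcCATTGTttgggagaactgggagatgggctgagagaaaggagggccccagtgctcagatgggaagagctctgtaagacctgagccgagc
Bmf: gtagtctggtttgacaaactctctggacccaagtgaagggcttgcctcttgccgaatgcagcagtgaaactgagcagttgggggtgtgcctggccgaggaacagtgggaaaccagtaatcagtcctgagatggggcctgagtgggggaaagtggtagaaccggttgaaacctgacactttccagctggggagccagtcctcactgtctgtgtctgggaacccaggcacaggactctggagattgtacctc
Plekhh1: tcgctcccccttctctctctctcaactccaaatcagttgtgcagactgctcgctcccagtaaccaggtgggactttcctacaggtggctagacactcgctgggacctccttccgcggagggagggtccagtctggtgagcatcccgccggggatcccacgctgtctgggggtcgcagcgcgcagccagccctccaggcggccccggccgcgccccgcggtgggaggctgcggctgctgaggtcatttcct
The Tmem88b stretch lies at chr4:155785875-155786124 on the minus strand, that of Bmf at chr2:118544588-118544837 on the minus strand, between exons inside the gene, and that of Plekhh1 at chr12:79028913-79029162 on the plus strand. The Tmem88b stretch held 1 match, which began 88 bases before the start, and the stretches of Bmf and Plekhh1 held none. Of the 26 members with an entry, 8 held at least 1 match (30.8%), against 25.5% of 27025 promoters in the table. Among the 17 of them that fell in Prkci cKO, 4 did (23.5%). The members' stretches had a median GC content of 60.2%, against 52% over the table. A match is a description of the letters and says nothing of binding.

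In Prkci cKO, 26 of the 39 members fell against controls and none rose. All 39 fitted changes were below 0, from -1.09 for Nipal4 to -0.08 for Enpp2, with a median of -0.60 on the log2 scale. The changes came to -53.2% for Nipal4, -49.7% for Adamts4, -48.3% for Tmem88b and -47.5% for Plekhh1. Over all genes tested, 1.51% fell (1.61% passed in either direction), 49.1% had a change below 0 and the median was 0.00. In 31 of the 39 every Prkci cKO library lay below every control, as did 5.32% of all genes. The falls were in every role group: 2 of 6 secreted and extracellular proteins, 3 of 4 genes of lysophospholipid signalling and receptors, 9 of 12 membrane and adhesion proteins, 7 of 9 regulators of the cytoskeleton and of small GTPases, and 5 of 8 genes of metabolism, stress and survival.

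The Prkci cKO count moved with 1 library and with the controls used. It was 16 without Prkci cKO replicate 2, all of them among the 26, where 88 of all genes fell, and between 20 and 28 without any other single library. Only these 16 of the 26 were called in all 8 fits that left out 1 control or 1 Prkci cKO library. Of the rest, Cd9, Pllp, Myo1d and Qdpr were called in 7 each and Rhog in 5. Trf, Tmem63a and Anln were called in 4 each, Sh3gl3 in 3 and Atp8b1 in 2. Genes of the striatum, the region beneath the cortex, were lower in the Prkci cKO libraries. The 12 measured striatal genes summed to 1040 to 1660 in controls, 583 to 973 in Prkci cKO and 1040 to 2150 in Prkcz cKO. All 12 had a change below 0 in Prkci cKO, of which 1 (Sh3rf2) fell. Because the ranges of controls and Prkci cKO did not overlap, the striatal level and the genotype cannot be told apart in this comparison. With a striatum score per library in the limma fit, none of the 39 members passed. All 39 changes remained below 0, and the median was -0.46. An unadjusted p under 0.05 was seen for 30 of the 39, and the share of all genes under it is not given here. In that fit 6 of 14330 genes fell in Prkci cKO, against 216 without the score, so calls were lost across all genes.

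In Prkcz cKO, 8 of the 39 members fell and none rose: Adamts4, Lpar1, Tspan2, Atp8b1, Arhgef10, Myo1d, Car2 and Bmf. The fitted changes ran from -0.76 for Adamts4 to 0.17 for Enpp2, with a median of -0.39, and 38 of 39 were below 0. Adamts4 and Lpar1 changed most, by -40.8% and -40.4%. Over all genes tested, 0.621% fell (0.649% passed in either direction), 51.8% had a change below 0 and the median was -0.01. In 24 of the 39 every Prkcz cKO library lay below every control, as did 6.72% of all genes. In 22 members all 7 knockout libraries lay below all 4 controls, as they did in 2.07% of all genes. The striatal sums of Prkcz cKO and controls overlapped, and with the striatum score in the fit the same 8 members were called. In that fit 111 of 14330 genes fell in Prkcz cKO, against 89 without the score. The Prkcz cKO libraries were uneven, however. Their striatal medians relative to the control mean were -0.46, -0.40 and 0.62 in replicates 1 to 3, against -0.45 to 0.26 in controls. Replicates 1 and 2 thus lay at the low end of the controls and replicate 3 above them all.

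The Prkcz cKO count rested on single libraries. In the limma fit it was 0 without Prkcz cKO replicate 2 (26 members had an unadjusted p under 0.05), 1 without Prkcz cKO replicate 3, 3 without Prkcz cKO replicate 1, 2 without Control replicate 1 and 4 without Control replicate 2. Calls were lost across all genes too: 9 of 14330 genes fell without Prkcz cKO replicate 2, 10 without replicate 3, 73 without replicate 1, 24 without Control replicate 1 and 47 without Control replicate 2, against 89 with every library. No member was called in all 7 fits that left out 1 control or 1 Prkcz cKO library. Lpar1 was called in 6 of them, Adamts4 and Car2 in 4 each, and Myo1d in 3. Tspan2 and Arhgef10 were called in 2 each, Bmf in 1 and Atp8b1 in 0. Vascular genes were also lower in these libraries: 2 of 10 endothelial genes (Flt1 and Kdr) and 1 of 9 tested pericyte and mural cell genes (Rgs5) fell, with summed endothelial levels of 185 to 193 against 222 to 250 in controls (255 to 281 in Prkci cKO) and summed mural levels of 125 to 138 against 155 to 177. Their part in the members' changes was not tested. Both comparisons use the same 4 controls, so their values below are given side by side and are not independent.

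**Figure D1:**
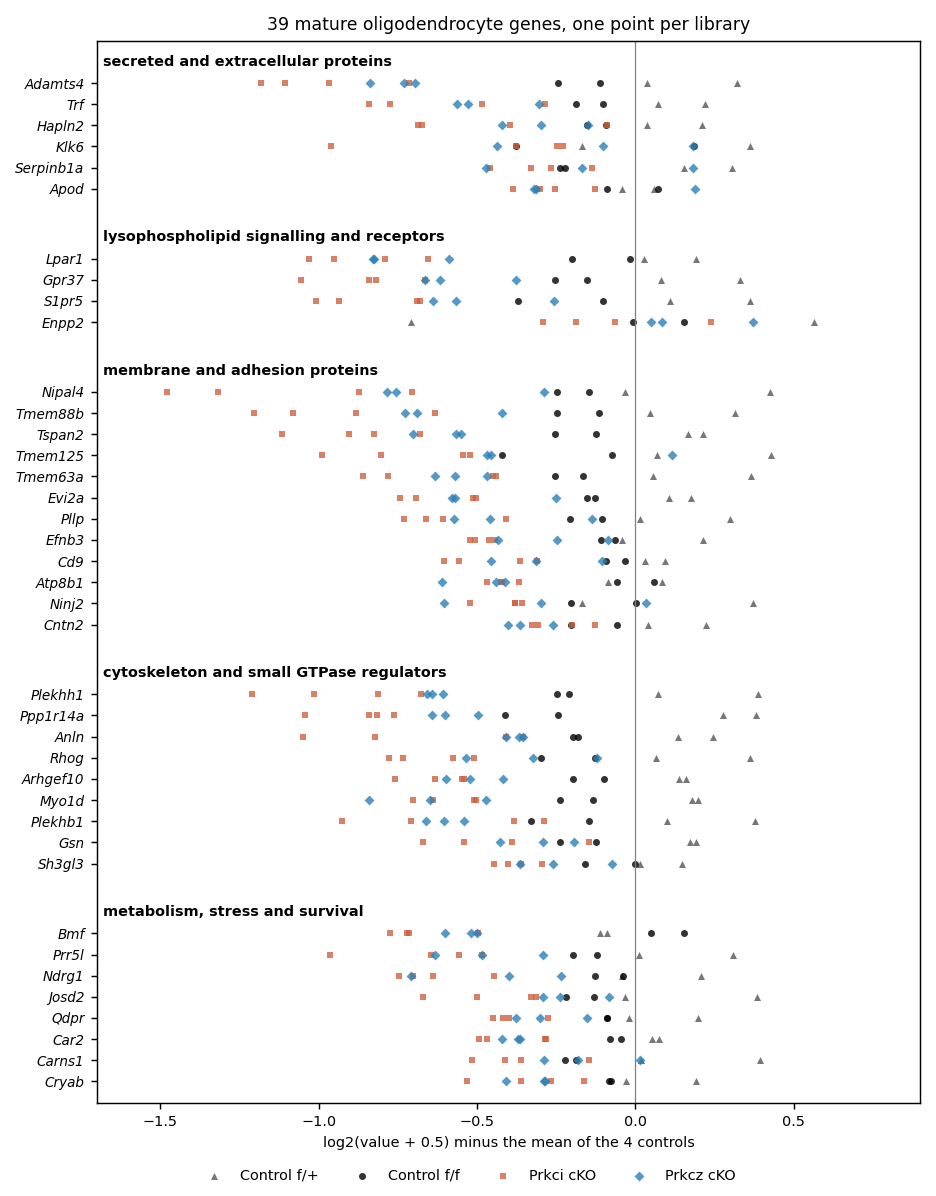
Each row is 1 of the 39 members, grouped by role, and each point 1 library, as log2(value + 0.5) minus the mean of the 4 controls; triangles and circles are f/+ and f/f controls, squares Prkci cKO and diamonds Prkcz cKO. Prkci cKO points lie left of every control in 31 rows and Prkcz cKO points in 24, and Enpp2, Klk6 and Serpinb1a are among the rows where the groups mix.

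Among the secreted and extracellular proteins, Adamts4 showed the largest fall in both knockouts. Adamts4 encodes a metalloproteinase that cleaves proteoglycans of the extracellular matrix (chromosome 1, 171250421 to 171260637, GRCm38). Normalised expression of Adamts4 was 41.4, 34.0, 27.9 and 30.6 in Control replicates 1 to 4, 16.7, 15.1, 14.3 and 19.9 in Prkci cKO and 18.3, 19.7 and 20.2 in Prkcz cKO. All 7 knockout libraries lay below all 4 controls. Its change was -0.99 (SE 0.117, limma adjusted p = 0.000984) in Prkci cKO and -0.76 (SE 0.126, limma adjusted p = 0.0215) in Prkcz cKO. The latter call was lost without any one of the 3 Prkcz cKO libraries, with an adjusted p of at most 0.0799.

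Trf, which encodes the iron carrier transferrin, was at 302 ± 38.2 (SD, n = 4) in controls, 200 ± 36.5 (SD, n = 4) in Prkci cKO and 218 ± 21.8 (SD, n = 3) in Prkcz cKO. It fell in Prkci cKO by 0.60 (SE 0.116, limma adjusted p = 0.0174), and in Prkcz cKO its change of -0.47 did not pass (adjusted p = 0.117). The Prkci cKO call of Trf held in 4 of the 8 fits that left out a library (adjusted p 0.00427 to 0.0772). The other 4 secreted proteins passed in neither comparison. Hapln2, a link protein of the matrix at nodes of Ranvier, had changes of -0.46 and -0.29, and Apod, a lipid carrier, of -0.27 and -0.15. The controls had Klk6 at 1.75, 2.75, 1.45 and 2.38 (replicates 1 to 4), the Prkci cKO libraries at 1.66, 0.8, 1.45 and 1.63 and the Prkcz cKO libraries at 1.86, 1.37 and 2.37. Klk6, a secreted serine protease, was thus low throughout and its groups overlapped, with changes of -0.45 (SE 0.21, adjusted p = 0.411) and -0.12 (SE 0.226, adjusted p = 0.831). In Control replicates 1 to 4 Serpinb1a was at 6.15, 6.88, 4.62 and 4.57. The Prkci cKO libraries had it at 4.47, 4.93, 3.85 and 4.25, and the Prkcz cKO libraries at 4.82, 3.81 and 6.27. Serpinb1a, a protease inhibitor, also overlapped between all 3 groups, with changes of -0.30 (adjusted p = 0.483) and -0.15 (adjusted p = 0.689).

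Both receptors of lysophospholipids among the members fell in Prkci cKO, whereas the gene for the enzyme that makes lysophosphatidic acid did not pass in either knockout. Lpar1 encodes a receptor for lysophosphatidic acid (chromosome 4, 58435255 to 58553898). Lpar1 was at 58.3, 52.0, 44.4 and 50.5 in Control replicates 1 to 4, at 29.3, 26.1, 24.7 and 32.2 in the 4 Prkci cKO libraries and at 28.6, 28.5 and 33.8 in the 3 Prkcz cKO libraries. Every knockout library was below every control, at 33.8 or less against at least 44.4. The change was -0.86 (SE 0.0952, limma adjusted p = 0.000984) in Prkci cKO and -0.75 (SE 0.103, limma adjusted p = 0.00872) in Prkcz cKO, where it had the smallest p of the 39. The Prkcz cKO call was lost in 1 of the 7 fits that left out a library (adjusted p = 0.0507 without Prkcz cKO replicate 2).

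S1pr5, a receptor for sphingosine 1-phosphate, followed in Prkci cKO. Normalised expression of S1pr5 was 17.9, 15, 10.6 and 12.9 in Control replicates 1 to 4, 8.44, 6.62, 7.0 and 8.38 in Prkci cKO and 8.71, 9.18 and 11.5 in Prkcz cKO. Control replicate 3 (10.6) lay below the highest Prkcz cKO library (11.5), so these groups overlapped, whereas all Prkci cKO libraries were lower than any control. The change was -0.83 (SE 0.143, limma adjusted p = 0.00883) in Prkci cKO and -0.49 (SE 0.154, limma adjusted p = 0.172), not past the threshold, in Prkcz cKO. Whether Lpar1 and S1pr5 differed from each other was not tested. Gpr37, a G protein-coupled receptor of oligodendrocytes, was the other receptor that fell. The controls had Gpr37 at 80.7, 67.8, 53.6 and 57.6 (replicates 1 to 4), the Prkci cKO libraries at 36.1, 35.6, 30.6 and 40.2 and the Prkcz cKO libraries at 40.2, 41.6 and 49.3. All knockout libraries lay below all controls, with changes of -0.84 (SE 0.117, limma adjusted p = 0.00226) in Prkci cKO and -0.55 (SE 0.126, limma adjusted p = 0.0695) in Prkcz cKO.

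Enpp2 encodes autotaxin, the secreted enzyme that forms lysophosphatidic acid, and its groups overlapped. In Control replicates 1 to 4 Enpp2 was at 367, 887, 597 and 668. The Prkci cKO libraries had it at 489.8, 573, 527 and 707, and the Prkcz cKO libraries at 621, 777 and 636. The controls alone ran from 367 to 887, and every knockout library lay within that range. Its change was -0.08 (SE 0.201, limma adjusted p = 0.921) in Prkci cKO and 0.17 (SE 0.217, limma adjusted p = 0.74) in Prkcz cKO, the only member above 0. The sign turned when 1 control was left out: 0.11 in Prkci cKO without Control replicate 2 and -0.07 in Prkcz cKO without Control replicate 1. Choroid plexus genes varied in the same libraries. Ttr, the transthyretin gene of that tissue, was at 78.7 in Control replicate 1 and 850.1 in Control replicate 2, the controls in which Enpp2 was lowest (367) and highest (887). The 10 choroid plexus genes were all measured, and they summed to 99 to 1010 in controls, 452 to 727 in Prkci cKO and 626 to 1020 in Prkcz cKO. The part of choroid plexus RNA in the Enpp2 values was not tested.

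Most other genes of the lysophospholipid pathway passed in neither comparison. Of 16 tested, 1 fell in Prkci cKO and none in Prkcz cKO in the limma fits, with medians of -0.03 and -0.08. The one was Enpp6, a choline phosphodiesterase of newly formed oligodendrocytes, at -0.87 (SE 0.16, adjusted p = 0.012). Ppap2c, a lipid phosphate phosphatase gene, was next in Prkci cKO at -0.80 (adjusted p = 0.0556).

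**Figure D2:**
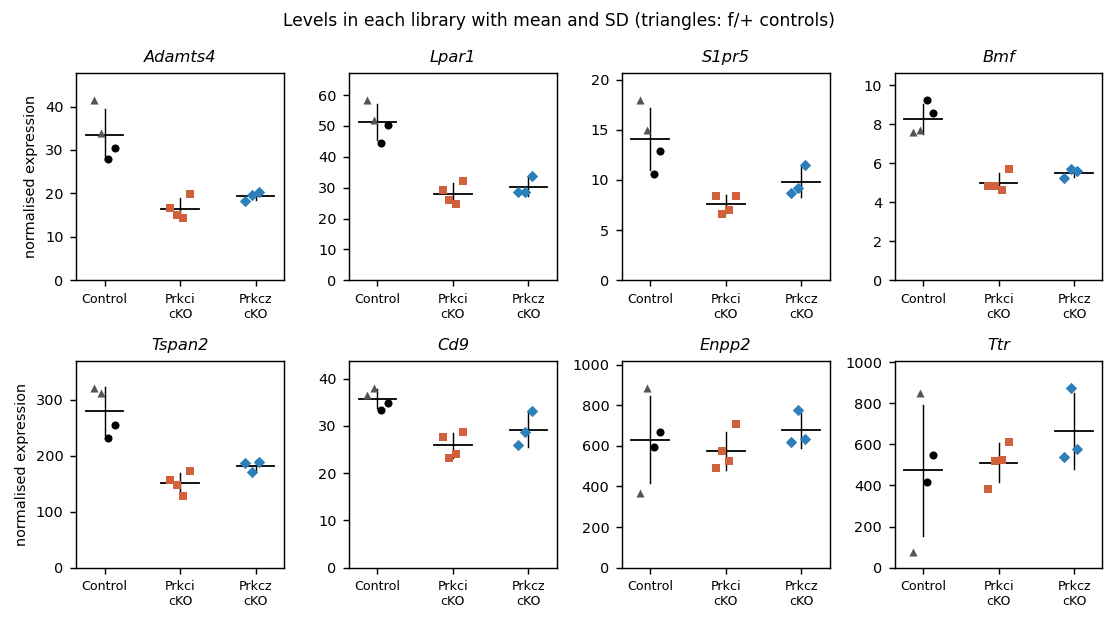
Normalised expression of 7 members and of Ttr, the choroid plexus marker, by group on linear axes from 0; points are libraries, horizontal bars means and vertical bars SDs (n = 4, 4 and 3). Adamts4, Lpar1, Bmf, Tspan2 and Cd9 show no overlap between controls and either knockout, S1pr5 overlaps in Prkcz cKO, and among the controls Enpp2 and Ttr are lowest in one f/+ library and highest in the other.

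Membrane and adhesion proteins held the member with the largest fall in Prkci cKO. Nipal4, of a family of magnesium transporters (chromosome 11, 46148155 to 46166508), fell by 1.09 there. Nipal4 was at 10.5, 7.55, 6.43 and 6.94 in Control replicates 1 to 4, at 3.99, 2.8, 2.45 and 4.54 in the 4 Prkci cKO libraries and at 4.37, 4.28 and 6.23 in the 3 Prkcz cKO libraries. All knockout libraries lay below the lowest control, Prkcz cKO replicate 3 only narrowly. The change was -1.09 (SE 0.189, limma adjusted p = 0.00884) in Prkci cKO and -0.61 (SE 0.204, limma adjusted p = 0.194) in Prkcz cKO. Tmem88b, a transmembrane protein gene 420230 bases from Prkcz on chromosome 4, fell in Prkci cKO. Normalised expression of Tmem88b was 114, 94.6, 77.1 and 84.6 in Control replicates 1 to 4, 49.4, 43.0, 39.5 and 58.9 in Prkci cKO and 55.1, 56.6 and 68.3 in Prkcz cKO. No knockout library reached any control, and the change was -0.95 (SE 0.129, limma adjusted p = 0.00226) in Prkci cKO and -0.61 (SE 0.14, limma adjusted p = 0.0696) in Prkcz cKO.

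The related tetraspanins Tspan2 and Cd9, which organise membrane domains, both fell in Prkci cKO. The controls had Tspan2 at 322, 311, 232 and 254 (replicates 1 to 4), the Prkci cKO libraries at 156, 148, 128 and 173 and the Prkcz cKO libraries at 187, 170.1 and 189. Tspan2 (chromosome 3, 102734529 to 102801513) had a change of -0.88 (SE 0.104, limma adjusted p = 0.000984) in Prkci cKO and -0.61 (SE 0.113, limma adjusted p = 0.0315) in Prkcz cKO. In Control replicates 1 to 4 Cd9 was at 36.5, 38.1, 33.4 and 34.8. The Prkci cKO libraries had it at 27.6, 23.3, 24.1 and 28.7, and the Prkcz cKO libraries at 25.9, 28.6 and 33.1. For both genes every knockout library was below every control. Cd9 had a change of -0.46 (SE 0.0843, limma adjusted p = 0.0124) in Prkci cKO and of -0.29 (SE 0.0911, limma adjusted p = 0.169) in Prkcz cKO. The exons of both overlap those of an antisense gene. Of 21 other tetraspanins tested, 2 fell in Prkci cKO, Cd82 (-0.67, SE 0.0942, adjusted p = 0.00226) and Tspan15 (-0.61, SE 0.117, adjusted p = 0.0159). In Prkcz cKO none of the 21 did in the limma fit, where Cd82 was at -0.48 (adjusted p = 0.0546), and the medians of the 21 were -0.08 and -0.05.

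Atp8b1, a flippase that moves phospholipids between membrane leaflets, was the other membrane member called in Prkcz cKO. Atp8b1 was at 6.56, 5.77, 5.9 and 6.43 in Control replicates 1 to 4, at 4.66, 4.31, 4.46 and 4.47 in the 4 Prkci cKO libraries and at 4.5, 4.41 and 3.86 in the 3 Prkcz cKO libraries. The spread within groups was small, and all knockout libraries lay between 3.86 and 4.66, against at least 5.77 in controls. Its change was -0.42 (SE 0.0868, limma adjusted p = 0.0249) in Prkci cKO and -0.49 (SE 0.0938, limma adjusted p = 0.0353) in Prkcz cKO, but each of the 7 Prkcz cKO fits that left out a library lost the call (adjusted p 0.0559 to 0.127). The Prkci cKO call held in 2 of the 8 such fits (adjusted p 0.0409 to 0.0932). The mechanically gated channel gene Tmem63a (-0.63), Evi2a (-0.61), the plasmolipin gene Pllp (-0.60) and the ephrin gene Efnb3 (-0.48) fell in Prkci cKO. Tmem125 (-0.72, adjusted p = 0.0649), the adhesion gene Ninj2 (-0.41, adjusted p = 0.363) and Cntn2, an adhesion protein beside the node of Ranvier (-0.24, adjusted p = 0.195), did not pass. Evi2a shares exons with Evi2 on the same strand, so its reads may be split.

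Among regulators of the cytoskeleton, Plekhh1, which encodes a protein with pleckstrin homology domains, had the largest change in Prkci cKO. Normalised expression of Plekhh1 was 65.5, 52.5, 43.2 and 42.1 in Control replicates 1 to 4, 28.2, 24.5, 21.3 and 31.1 in Prkci cKO and 31.5, 32.6 and 31.9 in Prkcz cKO. The knockout libraries lay between 21.3 and 32.6 and the controls at 42.1 or more. Its change was -0.93 (SE 0.131, limma adjusted p = 0.00226) in Prkci cKO and -0.64 (SE 0.142, limma adjusted p = 0.0616) in Prkcz cKO. Arhgef10, an exchange factor for small GTPases, fell in both. The controls had Arhgef10 at 52.2, 51.3, 40.6 and 43.5 (replicates 1 to 4), the Prkci cKO libraries at 31.9, 29.9, 27.4 and 31.7 and the Prkcz cKO libraries at 30.6, 32.4 and 34.8. No library of either knockout reached the lowest control, and the change was -0.62 (SE 0.0827, limma adjusted p = 0.00226) in Prkci cKO and -0.51 (SE 0.0894, limma adjusted p = 0.0237) in Prkcz cKO.

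Myo1d, an unconventional myosin, was the other gene of this role called in both. In Control replicates 1 to 4 Myo1d was at 23.8, 24.1, 19.1 and 17.7. The Prkci cKO libraries had it at 14.6, 13.3, 12.7 and 14.6, and the Prkcz cKO libraries at 15, 11.5 and 13.2. Libraries of both knockouts lay between 11.5 and 15, all under the lowest control of 17.7. The change was -0.59 (SE 0.108, limma adjusted p = 0.012) in Prkci cKO and -0.65 (SE 0.116, limma adjusted p = 0.0265) in Prkcz cKO. Ppp1r14a, an inhibitor of myosin phosphatase that is itself a substrate of protein kinase C (-0.87), Anln, the actin-binding protein anillin (-0.66), the small GTPase gene Rhog (-0.65) and the endophilin gene Sh3gl3 (-0.38) fell in Prkci cKO. In Prkcz cKO their changes of -0.58, -0.38, -0.33 and -0.23 did not pass. The difference between the knockouts did not pass for any of the 4. Plekhb1 (-0.58, adjusted p = 0.073) and the actin-severing protein gene Gsn (-0.44, adjusted p = 0.0782) did not pass in Prkci cKO.

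In the group of metabolism, stress and survival, Bmf and Car2 fell in both knockouts. Bmf encodes a pro-apoptotic BCL2 family protein (chromosome 2, 118528757 to 118549687). Bmf was at 7.61, 7.73, 9.24 and 8.57 in Control replicates 1 to 4, at 4.82, 4.84, 4.62 and 5.71 in the 4 Prkci cKO libraries and at 5.27, 5.69 and 5.62 in the 3 Prkcz cKO libraries. The highest knockout library, at 5.71, was below the lowest control, at 7.61. Its change was -0.68 (SE 0.0924, limma adjusted p = 0.00226) in Prkci cKO and -0.54 (SE 0.0998, limma adjusted p = 0.0309) in Prkcz cKO. Car2 encodes a cytosolic carbonic anhydrase. Normalised expression of Car2 was 131, 129, 118 and 121 in Control replicates 1 to 4, 102, 90.1, 88.5 and 103 in Prkci cKO and 93.0, 96.4 and 96.7 in Prkcz cKO. Neither knockout overlapped the controls, and the changes came to -23.3% in Prkci cKO and -23.5% in Prkcz cKO. On the log2 scale these were -0.38 (SE 0.0575, limma adjusted p = 0.0034) and -0.39 (SE 0.0621, limma adjusted p = 0.0205), and the difference between the knockouts was 0.00 (95% interval -0.13 to 0.14, adjusted p = 0.984).

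Prr5l, a partner of an mTOR complex (-0.66), Ndrg1, a stress-responsive gene (-0.63), and Qdpr, which regenerates tetrahydrobiopterin (-0.39), fell in Prkci cKO, and in Prkcz cKO their changes were -0.47, -0.45 and -0.28. The small heat shock protein gene Cryab (-0.33, adjusted p = 0.0556), the deubiquitinase gene Josd2 (-0.45, adjusted p = 0.0949) and the carnosine synthase gene Carns1 (-0.36, adjusted p = 0.273) did not pass. In Prkcz cKO these 3 were at -0.33, -0.20 and -0.15. Across the whole set, exons of 17 of the 39 members overlap those of another annotated gene, and the labels do not say if counting used the strand, so reads of such pairs are uncertain.

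**Figure D3:**
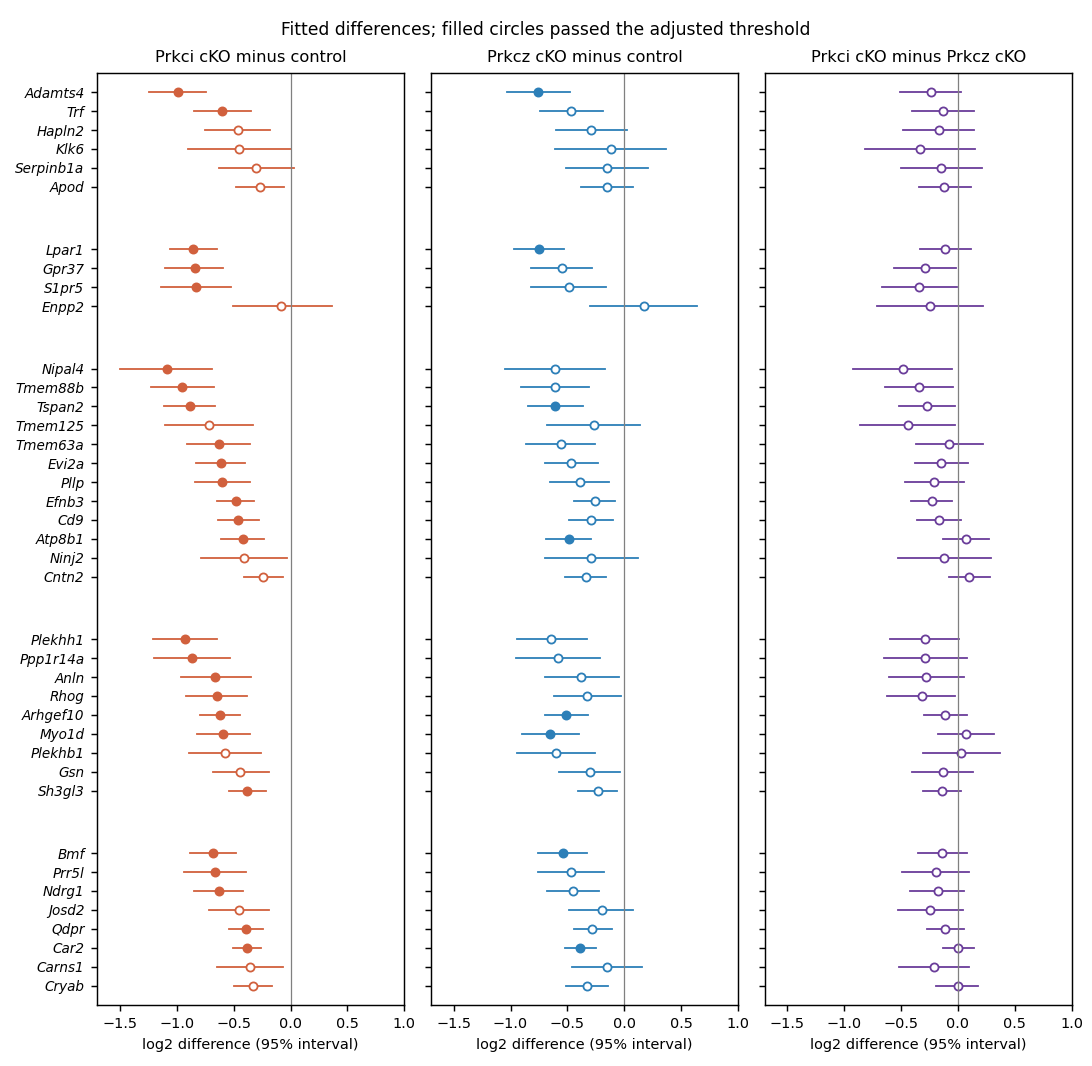
Fitted log2 differences of the 39 members with 95% intervals, grouped by role from secreted proteins at the top to metabolism, stress and survival at the bottom, for Prkci cKO minus control, Prkcz cKO minus control and Prkci cKO minus Prkcz cKO. Filled circles, 26, 8 and 0 in the 3 panels, passed an adjusted p of 0.05. The intervals are per gene and not adjusted, so open circles can have an interval that excludes 0.

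Between the knockouts no member passed in the limma fit, where over all genes 0.3% passed in either direction and 0.0628% were called lower in Prkci cKO. Without adjustment, 8 of the 39 members had a p under 0.05, and the share of all genes under it is not given here. In 34 of the 39 the fitted level was lower in Prkci cKO than in Prkcz cKO, against 51.5% of all genes, and the median difference was -0.17. The 95% intervals given here are per gene and, unlike the p-values, are not adjusted for the number of genes tested. Nipal4 had the largest difference, -0.48 (95% interval -0.92 to -0.05, limma adjusted p = 0.279). Tspan2 differed by -0.27 (95% interval -0.52 to -0.03, adjusted p = 0.272), Lpar1 by -0.11 (95% interval -0.33 to 0.11, adjusted p = 0.612), S1pr5 by -0.34 (95% interval -0.67 to -0.01, adjusted p = 0.302) and Cd9 by -0.17 (95% interval -0.36 to 0.03, adjusted p = 0.375). Efnb3 had the smallest adjusted p of the 39, -0.23 (95% interval -0.41 to -0.05, adjusted p = 0.236). In 6 of the 39 every Prkci cKO library lay below every Prkcz cKO library, against 6.43% of all genes. The adjusted p of the 39 ran from 0.236 to 0.991 and a difference that misses the threshold does not show that the knockouts were alike. Without Prkcz cKO replicate 3, the shallowest library and the one with the highest median of striatal genes (0.62 above the control mean), the median was -0.11 and none of the 39 had an unadjusted p under 0.05. The striatal sums of the knockouts did not overlap (583 to 973 in Prkci cKO, 1040 to 2150 in Prkcz cKO). Striatal level and genotype therefore cannot be told apart in this comparison either. With the striatum score in the limma fit the median was -0.09 and none of the 39 had an unadjusted p under 0.05. In that fit 1 of 14330 genes passed, against 43 without the score.

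For most of these genes the f/+ controls lay above the f/f controls, but no difference passed the test. In 32 of the 39 both f/+ controls lay above both f/f controls, as did 24% of all genes tested. The median difference of f/+ minus f/f was 0.31 over the members, with a range of -0.20 to 0.66, and 0.00 over all genes. None of the 39 passed in the limma fit with the controls split, where 0.154% of all genes did, and 20 had an unadjusted p under 0.05, as did 1802 of 14330 genes. Ppp1r14a differed most, at 8.43 against 5.17 (0.66, SE 0.136, adjusted p = 0.123). Bmf went the other way, with 7.67 in f/+ and 8.91 in f/f controls (-0.20, SE 0.121, adjusted p = 0.513).

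Against the f/f controls alone, 10 members fell in Prkci cKO, where 0.726% of all genes fell. They were Adamts4, Lpar1, Gpr37, Tspan2, Tmem88b, Efnb3, Arhgef10, Plekhh1, Ndrg1 and Bmf, all among the 26. The median of the 39 was then -0.42, and all 39 stayed below 0. In Prkcz cKO 2 members fell against the f/f controls, Lpar1 (-0.64, adjusted p = 0.0373) and Bmf (-0.64, adjusted p = 0.0386), where 0.3% of all genes fell. The median was -0.25, with 36 of 39 below 0. Litter and tissue handling are not given in the labels used here, and their part in the spread of the controls was not tested.

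Read library by library, the median of the 39 members relative to the control mean was 0.21 and 0.05 in the f/+ controls and -0.17 and -0.12 in the f/f controls. It was -0.49, -0.69, -0.70 and -0.42 in Prkci cKO replicates 1 to 4, and -0.47, -0.46 and -0.29 in Prkcz cKO replicates 1 to 3. Every knockout library thus lay below every control, and Prkci cKO replicates 2 and 3 were the lowest. The f/f controls lay between the f/+ controls and the knockouts.

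Structural myelin genes, kept apart from the members, showed the same order of libraries within Prkci cKO, from -0.54 in replicate 4 to -1.18 in replicate 3. Of the 15, 12 fell in Prkci cKO and 4 in Prkcz cKO, with medians of -0.84 and -0.62, against -0.60 and -0.39 for the members. Cldn11, the tight junction claudin of myelin, was at -0.98 in Prkci cKO and Ermn, the cytoskeletal protein ermin, at -1.02 (adjusted p = 0.000984 for both). Of 14 genes of newly formed oligodendrocytes, 9 and 6 fell, with medians of -0.46 and -0.43. Gpr17, a receptor that marks cells starting to differentiate, was at -0.60 in Prkci cKO (adjusted p = 0.000808) and at -0.77 in Prkcz cKO (adjusted p = 0.000186). Of 14 precursor genes, 1 fell in Prkci cKO (Olig2, -0.41) and none passed in Prkcz cKO in the limma fit, with a median of -0.15 in both. The list was mixed, with 4 of the 14 above 0 in Prkci cKO and 1 in Prkcz cKO. Cspg4, the NG2 gene, was at 0.39 in Prkci cKO (limma adjusted p = 0.0764) and 0.30 in Prkcz cKO (adjusted p = 0.224). Its Prkci cKO libraries, at 21.19 or more, all lay above the controls, at 20.08 or less. Pdgfra was at -0.03 and -0.11. Whether the medians of these lists differ was not tested.

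Markers of other cells passed in few cases. None of 13 cortical neuron, 10 astrocyte, 10 microglia, 10 endothelial, 9 pericyte and mural cell, 10 fibroblast and meninges and 10 choroid plexus genes passed in Prkci cKO in the limma fit, with list medians from -0.01 to 0.26. In Prkcz cKO 1 astrocyte gene (Aqp4, -0.46) fell besides the vascular genes above, and the medians of these lists ran from -0.39 for pericyte and mural cell genes to 0.57 for choroid plexus genes. Activity-induced immediate early genes were lower in both knockouts: 7 of 12 fell in each, and the 12 summed to 583 to 1230 in controls, 446 to 534 in Prkci cKO and 330 to 526 in Prkcz cKO. Their part in the members' changes was not tested. Of 5 Schwann cell genes listed, 2 (Prx and Egr2) were in the table, and neither passed. Egr2 is also among the 12 immediate early genes above, so its values are not a measure of Schwann cells alone.

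**Figure D4:**
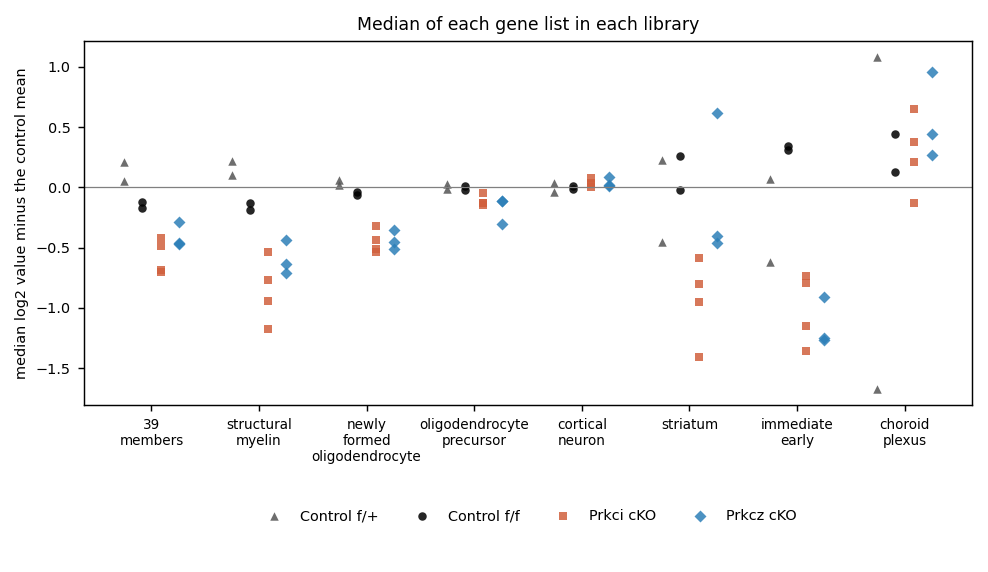
For each library, the median over a gene list of log2(value + 0.5) minus the mean of the 4 controls; symbols are those of the f/+ and f/f controls, Prkci cKO and Prkcz cKO. Medians of the members and of the structural myelin, newly formed oligodendrocyte and precursor lists are lower in all 7 knockout libraries than in any control. For the precursor list the gap is narrow, with medians of -0.02 to 0.03 in controls and -0.30 to -0.05 in knockouts. Neuron medians stay between -0.04 and 0.09, and striatal medians are -0.59 or lower in Prkci cKO and -0.46 to 0.62 in Prkcz cKO.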

How the data were processed

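Normalised expression of 16228 genes in 11 libraries was deposited by the authors as one signal value per gene and library, scaled per library. FastQC, Trim Galore, STAR, RSEM, edgeR and the build GRCm38 are named in the submitters' processing notes. For versions, annotation and exact scaling nothing is given in the sources used here. Low values were near whole multiples of one step per library (80.9% to 89.2% of values under 0.5, within 0.005), which gave the effective depths but not whole reads, so no count model was used. Groups and genotypes came from the labels.

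The 14330 genes that reached 1 in 3 or more libraries were fitted with limma 3.58.1 in R 4.3.3 on log2(value + 0.5), with all 11 libraries in 3 groups, a variance trend and 8 residual degrees of freedom. Fold changes are on that log2 scale, which understates changes of low genes. P-values are two-sided, adjusted by the Benjamini-Hochberg method over all genes tested, with a threshold of 0.05. Counts at an unadjusted p are of members, and only for the split of the controls is the count over all genes given. The fit was tested on simulated data. Other scalings, pseudocounts, filters, variance models, control sets, a striatum covariate, the replicate block and leaving out each library were tried as alternatives.

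The members and lists were chosen with earlier results of these data known. Library values are printed for the 8 members with the smallest p against controls in each knockout, the 3 with the largest, any above 0, the one that differed most between knockouts, and the pairs Tspan2 and Cd9, and Lpar1 and S1pr5. At most 2 genes per comparison are named from each other list, by smallest p. Gene positions are from GENCODE M21 and start regions from the RefSeq table of GRCm38.p6; regions that overlap exons were not printed, a condition set after the values were seen. Start regions of Adamts4, Trf, Car2, Efnb3, Evi2a, Cryab, Enpp2, Arhgef10, Atp8b1, Carns1, Myo1d, Ndrg1 and Serpinb1a were not used here.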

Additional observations from a re-analysis of the deposited data

Results flagged for a closer look

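Ninj2, an adhesion gene, stood apart in 1 of 78 combinations of a member and a group of 4 libraries. Prkci cKO replicate 3 was at 0.76, while the other 3 Prkci cKO libraries were at 0.91, 0.89 and 0.89, a gap larger than Dixon's 95% critical value allows. Chance alone marks about 1 in 20 such groups.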

How the results depend on the processing

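The number of members that fell in Prkci cKO stayed at 22 to 27 under the other pseudocounts, filters, scalings and variance models, with the 2 groups alone, and with a replicate block (27). It was 10 against the f/f controls only, 0 with the striatum score as a covariate (30 at an unadjusted p under 0.05 by limma), and 16 to 28 when 1 library was left out. In Prkcz cKO it was 7 to 10 under the other pseudocounts, filters, scalings, robust trend and array weights, 6 with a replicate block, 8 with the striatum score, 3 without a variance trend, 3 with the 2 groups alone, 2 against the f/f controls only, and 0 to 7 when 1 library was left out. No member passed between the knockouts under any alternative, the replicate block included (0; 8 at an unadjusted p under 0.05 by limma, and 0 to 14 over all alternatives). Same-numbered libraries correlated at -0.186 to 0.196 and differently numbered ones at -0.229 to 0.272. These ranges overlap and do not settle whether the numbers mark pairs. The main fit took none.

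Signs turned in 7 cases against controls over all 39 members, none of them past the threshold. Leaving out each library in turn gave -0.31 to 0.11 for Enpp2 in Prkci cKO, and in Prkcz cKO -0.07 to 0.36 for Enpp2, -0.27 to 0.04 for Klk6 and -0.32 to 0.01 for Serpinb1a. The turned values were 0.11 for Enpp2 in Prkci cKO (Control replicate 2) and, in Prkcz cKO, -0.07 for Enpp2 (Control replicate 1), 0.00 and 0.04 for Klk6 (Control replicate 2, Prkcz cKO replicate 2) and 0.01 for Serpinb1a (Prkcz cKO replicate 2). Against the f/f controls only, Serpinb1a was at 0.08 and Carns1 at 0.05 in Prkcz cKO. Between the knockouts, with the striatum score, Lpar1 and Ndrg1 were at 0.01, Cryab at 0.02, Apod at 0.12 and Ninj2 at 0.11. There 29 of 39 members were below 0, and 31 without Prkcz cKO replicate 3. The cause was not tested. No scaling moved the median of all genes by over 0.1. Depth was lowest in Prkcz cKO replicate 3, and low members such as Ninj2 and Klk6, with values near 1 or 2, are the least precise.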
